A study of Mus musculus with 2 samples.

Results

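The 37 genes described here encode proteins of DNA replication: the factors that license and fire replication origins, the fork machinery, the enzymes that supply nucleotides, proteins that rebuild chromatin behind the fork, and the E-type cyclins. They were taken as a list of gene names, by a rule that uses no measured level but with earlier results of these data known, and all 37 of them are among the 20198 genes of the deposited count table. The droplet single-cell RNA-seq data come from dissociated corneas of male mice 6 to 8 weeks old, in 1 library from unwounded corneas (UW) and 1 library from corneas 24 h after wounding (W), each a pool of 8 corneas from 4 mice. The wound was made by scraping away the central epithelium inside a trephine mark of 2.5 mm, so that the W library holds cells of a tissue from which a part was removed. The table analysed here holds 16450 UW and 12417 W cells, fewer than the study counted after its filters, with 367166822 and 289586482 unique molecular identifiers (UMIs, each standing for an RNA molecule), a median of 22014 and 20290 per cell, and 52 cell barcodes occur in both. Since each condition is a single library, no difference between UW and W can be told apart from a difference between libraries, and no test is given. Levels are UMIs of a gene, summed over the cells of a group, divided by all UMIs of that group and scaled to counts per 1000000 (CPM), and the values in parentheses are exact 95% intervals that cover counting error only.

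Replication begins when the origin recognition complex, with CDC6 and CDT1, loads the MCM helicase onto DNA in the G1 phase of the cell cycle. In S phase the helicase is activated by CDC45, the GINS complex and MCM10, the polymerases copy both strands, the clamp PCNA holds them on the template, and FEN1 and LIG1 join the short fragments of the lagging strand. Many of these genes are transcribed together around the entry into S phase under E2F transcription factors. In the cornea, dividing cells lie in the limbus and the basal layer of the epithelium, while cells of the upper layers have left the cell cycle.

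To show the letters that E2F factors are known to prefer, RefSeq promoter windows (GRCm38.p6, from 250 bases before to 50 after each start) were searched on both strands for TTTCCCGC, TTTCGCGC, TTTGCCGC and TTTGGCGC, which can overlap one another on opposite strands. Windows were given for 31 of the 37 genes, and 13 of these 31 (41.9%) held at least 1 match, against 704 of all 27025 genes with a window (2.6%). The letters CCAAT, of NF-Y sites, were found in 18 of the 31 genes (58.1%, against 41.1% of all genes). The cell cycle homology letters TTTGAA or TTCGAA, typical of genes of later phases, were found in 5 of them (16.1%, against 21.7%). A match is only a match of letters. The stretches below each lie before a RefSeq start of their gene, hold the E2F letters in capitals and overlap no exon of GENCODE M21. For *Cdc6* and *Uhrf1* that start lies downstream of the first start in GENCODE, so that these stretches are inside the gene. They are at chr8:75109336-75109387 on the plus strand (*Mcm5*), chr1:128359725-128359835 on the minus strand (*Mcm6*), chr11:98907993-98908040 on the plus strand (*Cdc6*), chrX:93632266-93632313 on the minus strand (*Pola1*) and chr17:56304108-56304155 on the plus strand (*Uhrf1*). No other gene with a window had a stretch that met these conditions, which use no measured level. In *Mcm5* and *Mcm6* the 12 capitals in a row are a match on each strand that overlap each other.
Mcm5: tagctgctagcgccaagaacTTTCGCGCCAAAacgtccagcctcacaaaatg
Mcm6: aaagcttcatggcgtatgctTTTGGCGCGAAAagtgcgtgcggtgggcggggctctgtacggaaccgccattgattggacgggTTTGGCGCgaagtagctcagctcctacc
Cdc6: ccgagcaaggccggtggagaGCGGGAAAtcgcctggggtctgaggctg
Pola1: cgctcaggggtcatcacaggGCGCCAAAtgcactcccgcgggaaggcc
Uhrf1: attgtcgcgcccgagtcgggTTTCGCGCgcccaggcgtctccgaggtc

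The table of cells gives each cell the number of a cluster made by the authors, without the cell type names the study uses, and here the clusters keep those numbers. Clusters 1 to 9 and 11 carried the markers of corneal epithelium and are called the epithelium, with 13501 UW and 8507 W cells, although cluster 7, led by the cornified envelope gene *Lce3a*, held only 7161 and 10783 CPM of the 6 epithelial markers. Clusters 0 and 10 carried stromal markers. The replication genes were highest in clusters 8, 11 and 9. Cluster 8 was led by mitotic genes such as *Nusap1*, *Kif11*, *Aurkb* and *Top2a*, cluster 11 by the replication genes *Ung*, *Hells*, *Uhrf1* and *Mcm3* themselves, and cluster 9 by *Wfdc18*, *Dlk2* and *Fndc1*. Since the clusters come from the same expression values, levels in one cluster against another are a description, and a ratio of W over UW within a cluster depends on where its border falls.

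In UW, summed over the 37 genes, cluster 8 held 2502 CPM (2475 to 2529.9), cluster 11 1912 CPM (1889 to 1936) and cluster 9 887 CPM (866 to 908). The other epithelial clusters lay between 139.9 CPM in cluster 7 and 349.9 CPM in cluster 3, a cluster led by *Krt18* and the basement membrane adhesion genes *Lamb3* and *Itgb4*. The UW level was highest in cluster 8 for 28 of the 37 genes and in cluster 11 for the other 9, among the 12 clusters with at least 50 cells in each library. In W the same count was 13 for cluster 8 and 24 for cluster 11. Cluster 9 came next after these for 34 genes in UW and 32 in W.

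**Figure D1:**
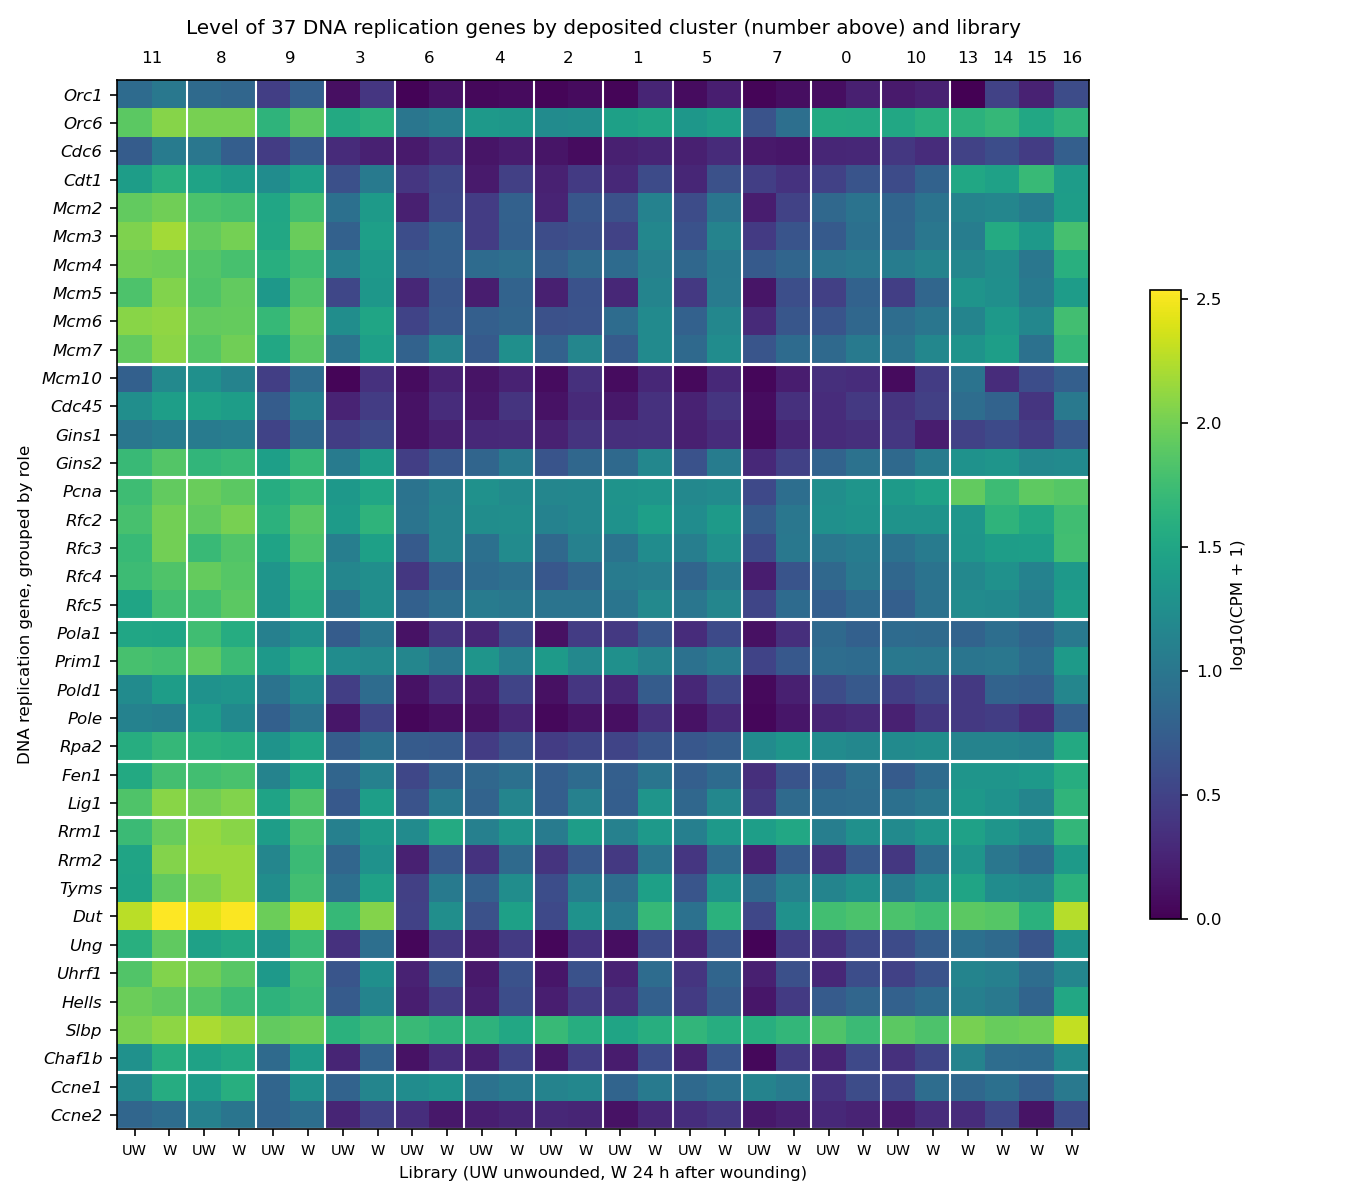
Level of each of the 37 genes (rows, grouped by role and separated by white lines) in each deposited cluster and library (columns), as log10(CPM + 1). Clusters 11, 8 and 9 are the brightest columns in both libraries, among clusters 0 to 11 every UW gene peaks in cluster 8 (28 genes) or cluster 11 (9 genes), and the stromal clusters 0 and 10 and the W immune clusters 13 to 16 stand on the right.

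Within the epithelium, the replication genes were higher in the wounded corneas. Their summed level was 384 CPM (382 to 386) in UW and 1187 CPM (1183 to 1192) in W, a log2 ratio of 1.63 (1.62 to 1.64). Of the 37 genes, 35 were at least 1.5-fold higher in W, where 34.4% of all genes with at least 20 UMIs were. The median log2 ratio was 1.71 over the 37 genes and 0.21 over all genes tested. TMM scaling, which centres the bulk of the genes, lowers each log2 ratio by 0.22 in the epithelium, 0.13 in cluster 1, 0.16 in cluster 6 and 0.38 in cluster 7, and raises it by 0.14 in cluster 0, 0.11 in cluster 8, 0.13 in cluster 9 and 0.11 in cluster 10.

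Origin licensing genes were summed to 94.2 CPM in UW and 315 CPM in W, a log2 ratio of 1.74 (1.72 to 1.76). *Mcm5*, a subunit of the helicase ring, measured 6.59 CPM (6.32 to 6.87) in UW and 38.98 CPM (38.2 to 39.8) in W, 5.92-fold. *Mcm3* stood at 10.7 and 48.7 CPM and *Mcm7* at 11.5 and 47.4 CPM, while *Mcm4*, of the same ring, had the lowest ratio of the MCM subunits with 12.9 and 32.5 CPM (log2 1.33 (1.27 to 1.38)). So the genes of the ring, whose products act in equal numbers, did not have equal ratios, with no overlap between the counting intervals of *Mcm5* and *Mcm4*. *Mcm2* (8.48 and 31.5 CPM) and *Mcm6* (13.9 and 44.5 CPM) lay between. Of the loading factors, *Cdt1* had 3.58 and 12.9 CPM, *Cdc6* 1.08 and 2.72 CPM, *Orc1* 0.667 and 2.82 CPM and *Orc6* 24.8 and 52.98 CPM. *Orc1* and *Cdc6* were the licensing genes with the fewest UMIs, so that their intervals are wide.

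The helicase activators were higher as a group, 13.4 against 46.8 CPM (log2 1.81 (1.76 to 1.86)). *Mcm10* had 1.099 and 5.11 CPM, *Cdc45* 2.23 and 9.27 CPM, and the GINS subunits *Gins1* 1.55 and 4.63 CPM and *Gins2* 8.47 and 27.8 CPM. The clamp *Pcna* stood at 19.02 CPM (18.6 to 19.5) and 38.1 CPM (37.3 to 38.9), log2 1.00 (0.96 to 1.05), and the subunits of its loader, *Rfc2*, *Rfc3*, *Rfc4* and *Rfc5*, had log2 ratios of 1.38, 1.84, 1.45 and 1.57. GENCODE M21 lists processed copies of *Pcna* and *Tyms*, and how reads shared with them were counted is not given in the sources used here.

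The genes of the polymerases and primase differed widely among themselves. *Pold1*, the catalytic subunit of the lagging strand polymerase delta, measured 2.12 CPM (1.96 to 2.28) and 9.51 CPM (9.12 to 9.91), log2 2.17 (2.04 to 2.29). *Prim1*, the catalytic subunit of primase, measured 19.95 CPM (19.5 to 20.4) and 26.2 CPM (25.5 to 26.8), log2 0.39 (0.34 to 0.44), the lowest ratio of the 37 genes. *Pola1*, which extends the primers, had 4.66 and 13.9 CPM, *Pole*, of the leading strand polymerase, 1.71 and 5.43 CPM and the single-strand binding subunit *Rpa2* 7.43 and 18.2 CPM. *Fen1*, the flap nuclease, and *Lig1*, the ligase, had log2 ratios of 1.73 and 2.17.

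The genes of nucleotide supply and uracil removal had the highest ratio of the 8 role groups, 70.3 CPM in UW against 319 CPM in W (log2 2.18 (2.16 to 2.20)). *Ung*, the glycosylase that removes uracil from DNA, measured 3.36 CPM (3.17 to 3.56) and 20.6 CPM (20.03 to 21.2), log2 2.62 (2.52 to 2.71), the highest ratio of the list. *Dut*, the dUTPase that keeps uracil out, was at 28.2 CPM (27.6 to 28.7) and 144 CPM (142 to 145). *Tyms*, thymidylate synthase, had 10.05 and 52.9 CPM. The small subunit of ribonucleotide reductase, *Rrm2*, was at 8.42 and 48.6 CPM (log2 2.53), and its large subunit *Rrm1* at 20.3 and 52.95 CPM (log2 1.38). Among the chromatin genes, *Chaf1b*, a subunit of the histone chaperone CAF-1, had 2.37 and 14.3 CPM, *Uhrf1*, which guides maintenance methylation, 7.79 and 34.04 CPM, and the remodeller *Hells* 8.42 and 25.9 CPM. *Slbp*, which binds the stem-loop of histone mRNAs, had 50.3 and 71.8 CPM (log2 0.51) and, with *Prim1*, was below 1.5-fold. The cyclins *Ccne1* (10.4 and 19.6 CPM) and *Ccne2* (1.49 and 3.83 CPM), which drive the entry into S phase, had log2 ratios of 0.91 and 1.37.

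A higher level over all epithelial cells can come from more cells of the clusters rich in these genes or from a higher level within clusters, and the counts allow both parts to be given. Of the difference of 803 CPM, 69.6% came with the shares of the clusters in the epithelial UMIs and 30.4% with levels within them, and the percentage from shares lay between 64.1% and 75.2% depending on which was changed first. Counted as UMIs per cell, with 9.47 in UW and 33.4 in W, the shares gave 46.8%. Cluster 8 held 3.84% of UW and 20.4% of W epithelial UMIs, in 3.96% and 15.7% of the cells (535 and 1332 cells), and added 96.2 CPM to the UW and 523 CPM to the W sum. Cluster 11 held 612 and 562 cells and added 74.7 and 239 CPM, and cluster 9 held 521 and 956 cells and added 20.3 and 184 CPM. These are shares of what was captured and deposited, and with the central epithelium scraped off in W, a gain of dividing cells and a loss of others cannot be told apart. Outside clusters 8 and 11 the epithelium still went from 231 CPM in UW to 597 CPM in W (log2 1.37 (1.35 to 1.38)), and 33 of 37 genes were at least 1.5-fold higher (32% of all genes).

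**Figure D2:**
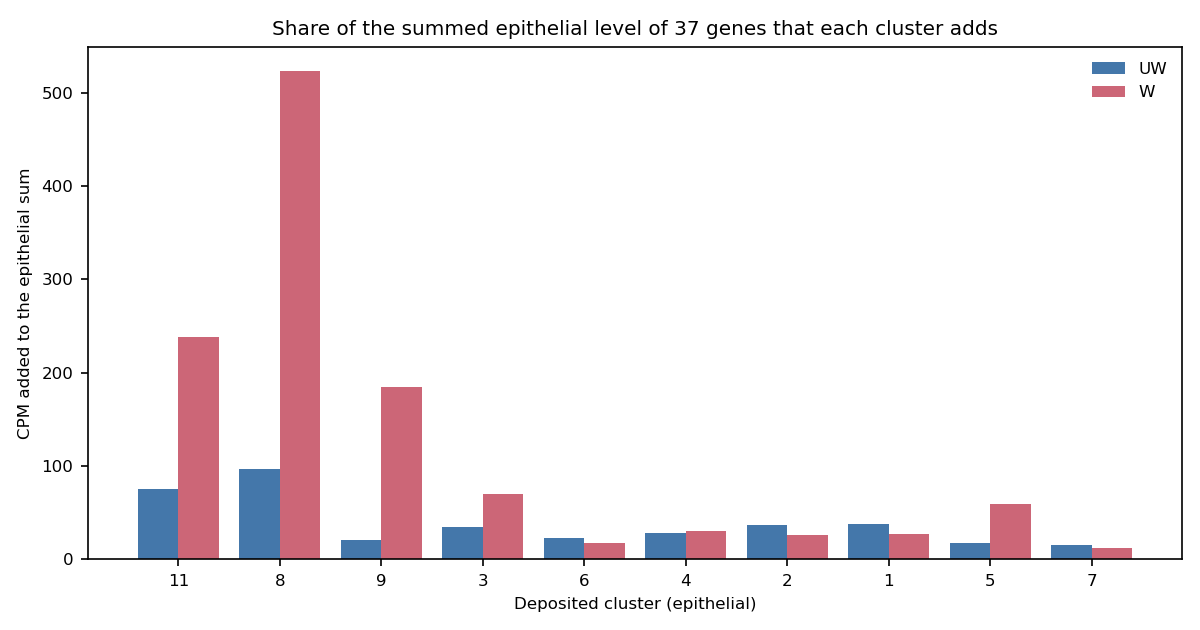
CPM that each epithelial cluster adds to the epithelial sum of the 37 genes (y axis), for UW and W; the bars of a library add up to its epithelial level. Cluster 8 adds 96.2 CPM in UW and 523 CPM in W, the tallest pair, followed by cluster 11. Cluster 9 comes next in W, but in UW it adds less than clusters 1, 2, 3, 4 and 6.

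To count cells rather than RNA, each cell was thinned to 5000 UMIs, leaving out 367 UW and 176 W epithelial cells with fewer, and a cell with at least 10 of the 37 genes detected was counted as rich in replication genes. In the epithelium these were 429 of 13134 cells, 3.27% (2.97 to 3.58), in UW and 1063 of 8331 cells, 12.8% (12.1 to 13.5), in W. Without thinning the shares were 10.5% and 40.4%. Nearly all such cells were in clusters 8, 9 and 11, and none of 1492 UW and 513 W cells of cluster 7 reached 10 genes, which allows up to 0.201% and 0.585%.

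**Figure D3:**
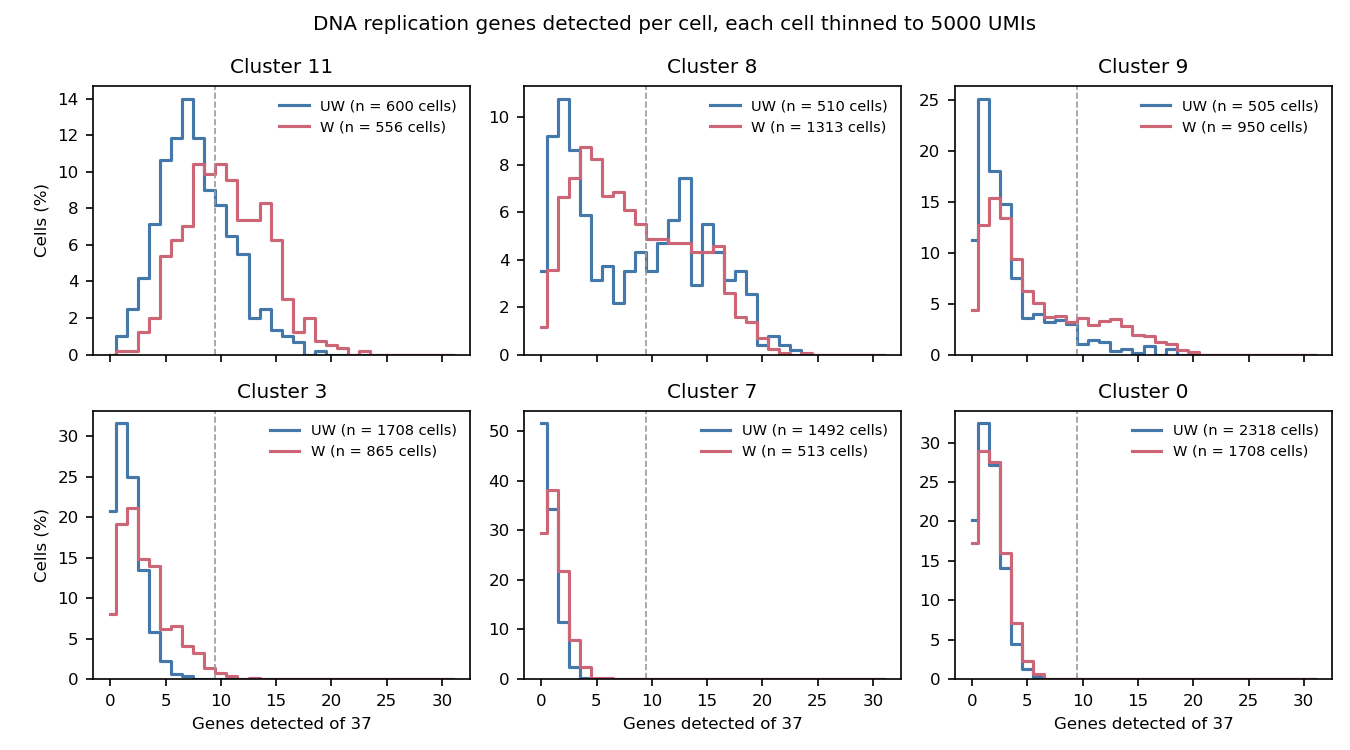
Number of the 37 genes detected per cell after thinning to 5000 UMIs (x axis) against the percent of cells (y axis) for 6 clusters, UW in blue and W in red, with the limit of 10 genes dashed. The W curve lies to the right of the UW curve in clusters 11, 9 and 3, cluster 8 of UW has a peak on each side of the limit, and clusters 7 and 0 stay below it apart from 1 cell in each library of cluster 0.

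Cluster 8, the mitotic cluster, was larger in W but its RNA held about the same level of replication genes, 2502 CPM (2475 to 2529.9) in UW and 2567 CPM (2553 to 2582) in W (log2 0.04 (0.02 to 0.05)). This sum had no stable direction, since the median over the 37 genes was -0.00647 and the geometric mean gave -0.046. Only *Ccne1* was at least 1.5-fold higher (20.8% of all genes), at 24.3 CPM (21.7 to 27.2) and 37.7 CPM (36.03 to 39.5). At least 1.5-fold lower were 4 genes (22.4% of all genes), and these were the loader *Cdc6* (9.14 CPM (7.56 to 10.96) and 4.78 CPM (4.19 to 5.44)), *Pole* (23.9 and 14.8 CPM), *Pola1* (55.8 and 36.4 CPM) and *Prim1* (79.7 and 52.2 CPM). All but *Cdc6* are polymerase or primase genes, and that role group as a whole was at 218 and 161 CPM (log2 -0.44 (-0.50 to -0.37)). The other genes of the group, *Pold1* and *Rpa2*, were within 1.5-fold. Nucleotide supply was slightly higher, 681 and 769 CPM (log2 0.18 (0.14 to 0.21)), with *Tyms* at 110.0 and 143 CPM, *Dut* at 265 and 333 CPM and *Rrm2* at 141 and 141 CPM. Per cell, the share with at least 10 genes was 230 of 510 cells, 45.1% (40.7 to 49.5), in UW and 513 of 1313 cells, 39.1% (36.4 to 41.8), in W. UW cells of cluster 8 showed a peak near 2 genes and another near 13, and W cells a single broad peak near 4. The 10 genes of a mitotic list, none of them among the 37, were summed to 2682 and 1667 CPM there, 4 of them at least 1.5-fold lower in W, with *Mki67* at 504 and 183 CPM, log2 -1.47, and the median depth was 24704 and 35499 UMIs per cell. The part of these in the result was not tested.

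Cluster 11, led by replication genes, made up 4.53% of UW and 6.61% of W epithelial cells, with 3.904% and 8.33% of the UMIs, and had a higher level in W, 1912 CPM (1889 to 1936) and 2865 CPM (2842 to 2889) (log2 0.58 (0.56 to 0.60)). Of its 37 genes, 18 were at least 1.5-fold higher (24.5% of all genes) and none 1.5-fold lower (20.3%). *Rrm2* measured 28.9 CPM (26.1 to 32) in UW and 114 CPM (109.6 to 119) in W, log2 1.98 (1.82 to 2.14), the highest ratio. It was followed by *Mcm10* (4.92 and 14.5 CPM), *Tyms* (28.7 and 82.9 CPM), *Ccne1* (14.5 and 36.02 CPM) and *Cdc6* (4.46 and 10.4 CPM). *Chaf1b* (18.1 and 37.9 CPM) and *Ung* (39.2 and 80.5 CPM) were also above 2-fold. The MCM ring differed less: *Mcm5* had a log2 ratio of 0.74 (0.63 to 0.86), *Mcm2* 0.22 (0.11 to 0.33), *Mcm6* 0.10 (0.01 to 0.19) and *Mcm4* -0.07 (-0.17 to 0.03). *Pola1* (30.4 and 30.1 CPM), *Prim1* (62 and 57.5 CPM) and *Pole* (12.2 and 11.4 CPM) had intervals that held 0, and *Hells*, at 92.2 and 80.97 CPM, had an interval below 0 (log2 -0.19 (-0.30 to -0.08)). Thus the sums of the E-type cyclins (group log2 1.08 (0.88 to 1.28)) and of nucleotide supply (1.07 (1.02 to 1.12)) stood at the high end. The cyclin sum rested on *Ccne1*, since *Ccne2* was at 5.85 and 6.98 CPM with an interval that held 0 (log2 0.26 (-0.16 to 0.68)). The sum of polymerases, primase and single-strand binding stood at the low end (group log2 0.12 (0.04 to 0.20)), although *Pold1* of that group was at 15.7 and 24.8 CPM (log2 0.66 (0.42 to 0.90)). The share of cells with at least 10 genes was 167 of 600 cells, 27.8% (24.3 to 31.6), in UW and 319 of 556 cells, 57.4% (53.1 to 61.5), in W, at equal thinned depth. W cells of cluster 11 had a median of 35514 UMIs against 21461, and the mitotic list was at 58.7 and 225 CPM, values whose part in the result was not tested.

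**Figure D4:**
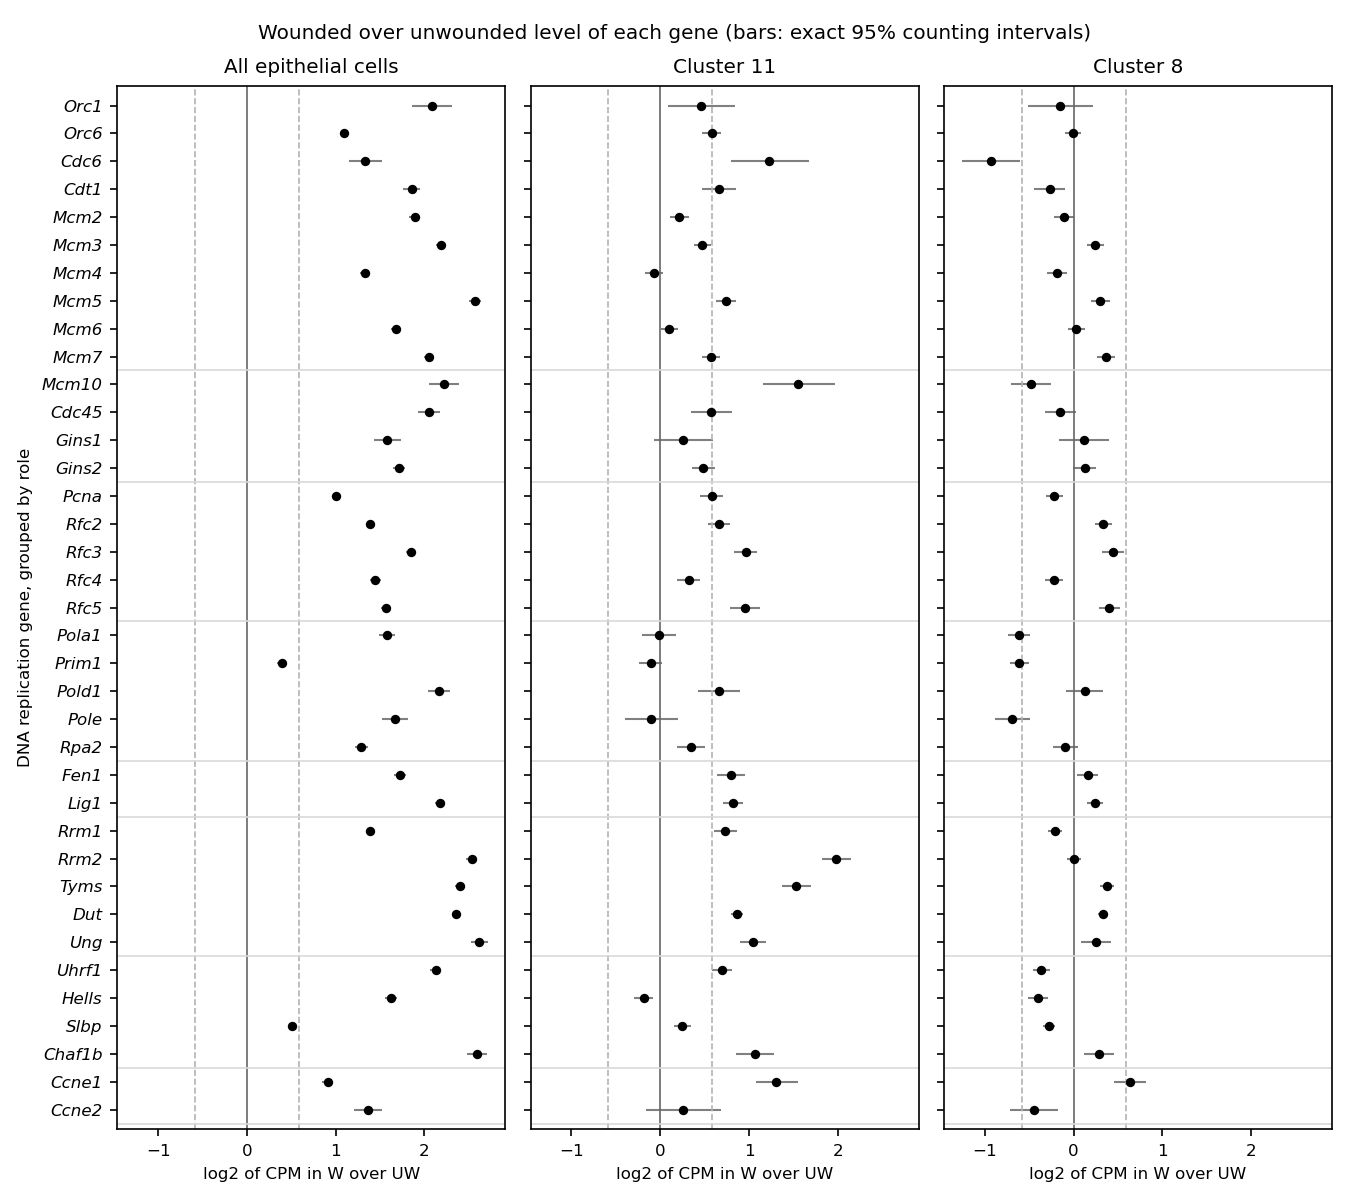
Log2 ratio of W over UW level (x axis) for each of the 37 genes (rows, grouped by role) in all epithelial cells, cluster 11 and cluster 8; points are ratios, bars exact 95% counting intervals and dashed lines 1.5-fold. All 37 points lie right of 0 in the epithelium, 18 lie past the upper dashed line in cluster 11, and in cluster 8 they spread around 0.

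The order of the genes between the clusters also differed by library. In UW, 16 of the 37 genes were at least 1.5-fold lower in cluster 11 than in cluster 8 (11.2% of all genes) and none 1.5-fold higher (4.02%). The lowest were *Rrm2* (log2 of cluster 11 over cluster 8 -2.28), *Tyms* (-1.94), *Mcm10* (-1.85) and *Rrm1* (-1.39), and the highest *Ung* (0.52), *Mcm6* (0.52) and *Mcm4* (0.48). *Mcm5*, of the same helicase ring as *Mcm6* and *Mcm4*, was at -0.03 and *Cdc45* at -0.71. In W, 10 genes were at least 1.5-fold higher in cluster 11 (3.90% of all genes) and 1 lower (7.95%), which was *Tyms*. There *Cdc6* stood at 1.13 where UW had -1.04 and *Tyms* at -0.78. Against all other epithelial cells outside clusters 8 and 11, cluster 11 held between 1.5-fold (*Ccne1*) and 46.1-fold (*Ung*) the level in UW, and between 2.64-fold (*Slbp*) and 8.77-fold (*Cdc45*) in W.

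**Figure D5:**
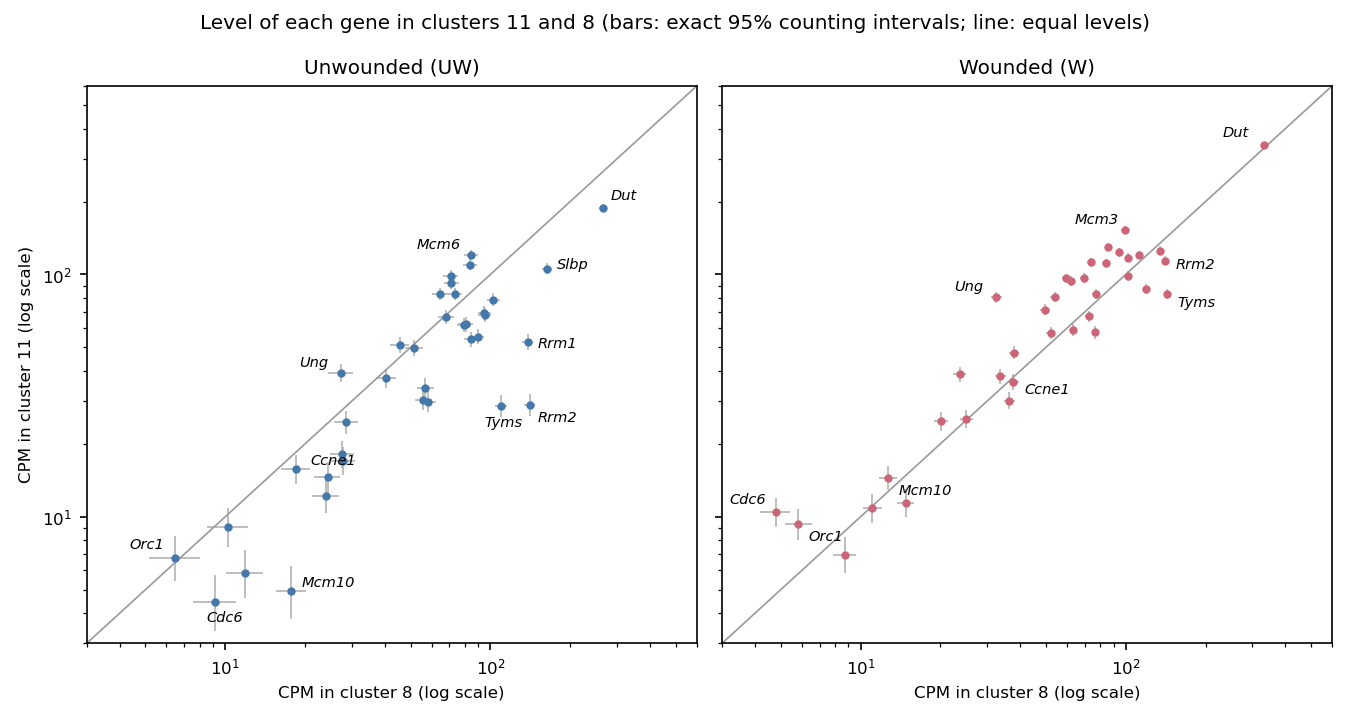
CPM of each gene in cluster 11 (y axis, log scale) against cluster 8 (x axis, log scale) in UW (left) and W (right), with exact 95% counting intervals and a line of equal levels. In UW *Rrm2*, *Tyms* and *Rrm1* lie far below the line (log2 -2.28, -1.94 and -1.39), and in W the points run from -0.78 (*Tyms*) to 1.31 (*Ung*).

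Because the border between clusters 8 and 11 may not fall at the same cells in UW and W, both were also pooled, an alternative added after the data had been seen. Their level was then 2205 CPM (2187 to 2223) in UW and 2654 CPM (2642 to 2666) in W (log2 0.27 (0.25 to 0.28)), with 6 genes at least 1.5-fold higher (23% of all genes). Highest were *Ccne1* (19.4 and 37.2 CPM, log2 0.94) and *Tyms* (69.04 and 125 CPM, log2 0.86). *Hells* (81.8 and 61.8 CPM, log2 -0.41), *Prim1* (70.8 and 53.7 CPM, log2 -0.40) and *Pole* (18.03 and 13.8 CPM, log2 -0.39) were lowest. Here too *Tyms* and *Rrm2* (log2 0.66) lay above the primase and polymerase genes, and the share of cells with at least 10 genes was 35.8% in UW and 44.5% in W.

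By the ratio of the summed level, cluster 9 differed most between libraries among the clusters with many cells of at least 10 genes. Its summed level was 887 CPM (866 to 908) in UW and 1771 CPM (1755 to 1788) in W (log2 1.00 (0.96 to 1.04)), 32 of 37 genes were at least 1.5-fold higher (19.7% of all genes), and none 1.5-fold lower (22.5%). *Rrm2* measured 13.5 CPM (11.04 to 16.4) and 52.7 CPM (49.9 to 55.7), *Mcm5* 21.4 CPM (18.2 to 24.95) and 67.6 CPM (64.5 to 70.96), and *Ccne1* 5.65 CPM (4.09 to 7.61) and 18.4 CPM (16.7 to 20.1). At the low end, *Slbp* had 83.5 and 91.2 CPM, *Hells* 42.8 and 51.4 CPM and *Ccne2* 5.52 and 7.27 CPM. Cells with at least 10 genes were 31 of 505 cells, 6.14% (4.21 to 8.60), in UW and 216 of 950 cells, 22.7% (20.1 to 25.5), in W, while the median cell held 2 and 4 genes. The mitotic list was at 78.9 and 304 CPM in this cluster, and 13 of the 31 UW and 149 of the 216 W cells with at least 10 genes held a UMI of that list. The median depth of the cluster was 13944 and 24009 UMIs and the median mitochondrial share 4.298% and 3.16%, and the part of these in the result was not tested.

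In the remaining epithelial clusters the genes were low in both libraries, yet higher in W. Cluster 3 had 349.9 CPM (344 to 356) and 737 CPM (726 to 749), with 30 of 37 genes at least 1.5-fold higher (25.4% of all genes) and none lower (22%), and 11 of its 865 thinned W cells and none of 1708 UW cells held at least 10 genes. Clusters 1, 2, 4, 5 and 6 had log2 ratios of 0.99, 0.45, 0.51, 0.86 and 0.64 for the sum. In cluster 1, led by *Pygl* and *Dapl1*, 28 of the 36 genes with at least 20 UMIs were 1.5-fold higher (25% of all genes), and in cluster 5, led by *Serpinb3a* and the conjunctival keratin *Krt4*, 28 of 37 were (22.5%) and none was lower (19%). In cluster 2 the count was 21 of 35 (20.9%), in cluster 4 22 of 36 (21.7%) and in cluster 6 26 of 35 (27.7%). At least 1.5-fold lower were *Prim1* and *Cdc6* in cluster 2 (27.9% of all genes), *Prim1* in cluster 4 (27.8%) and *Prim1* and *Ccne2* in cluster 6 (20.9%). No cell of these clusters held 10 genes at equal depth in either library, except 1 UW and 4 W cells of cluster 5. In cluster 7 the sum was 139.9 CPM (136 to 144) and 243 CPM (234 to 252), 25 of 32 genes were 1.5-fold higher (36.8%), and the median thinned cell held 0 and 1 of the genes. Of the 32 genes with at least 20 UMIs in each of clusters 1 to 7, 15 were at least 1.5-fold higher in W in all 7 of these clusters, where 7% of all genes so counted were, and *Mcm5*, *Dut* and *Tyms* were among them. *Mcm5*, for instance, was at 0.909 and 13.01 CPM in cluster 1 and at 0.386 and 3.097 CPM in cluster 7. *Prim1* was at 22.9 and 14.2 CPM in cluster 2, 20.01 and 11.8 CPM in cluster 4 and 13.4 and 8.797 CPM in cluster 6. *Cdc6*, with few UMIs, had a log2 ratio of -0.79 (-2.55 to 0.63) in cluster 2 and *Ccne2* of -1.29 (-2.68 to -0.14) in cluster 6. Smaller ratios with a counting interval below 0 were those of *Prim1* in cluster 1 (-0.47), *Pcna* in cluster 4 (-0.19) and *Slbp* in clusters 2 (-0.44), 4 (-0.39), 5 (-0.31) and 6 (-0.25). Beside these values, the mitotic list went from 8.35 to 38.5 CPM in cluster 7 and from 10.7 to 108 CPM in cluster 1, and the 4 neutrophil markers from 155 to 907 CPM in cluster 7 and from 4.097 to 683 CPM in cluster 1. The part of RNA free in the droplets in the W levels of these clusters was not tested.

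Other genes of the pathway, from lists of names, were compared in the same way. Of 21 further subunits of the same complexes, 12 were at least 1.5-fold higher and 1 lower in the W epithelium, where 34.4% and 17.7% of all genes were, with a median log2 ratio of 0.82. *Pola2* (1.75 and 9.24 CPM, log2 2.40), *Pole2* (0.919 and 4.66 CPM, log2 2.34) and *Prim2* (2.48 and 11.9 CPM, log2 2.26), partners of *Pola1*, *Pole* and *Prim1*, were highest, and *Rrm2b* (11.8 and 5.59 CPM, log2 -1.07), the reductase subunit used outside S phase, was lowest, before *Orc2* (18.03 and 13.7 CPM, log2 -0.40) and *Orc4* (31.2 and 25.5 CPM, log2 -0.29). Against the same shares of all genes, 14 of 17 origin firing and fork factors were higher and none lower, with *Dna2* (0.613 and 3.19 CPM, log2 2.38), *Ticrr* (0.784 and 3.799 CPM, log2 2.28) and the CDT1 inhibitor *Gmnn* (14.9 and 63.5 CPM, log2 2.10) highest. Of 9 nucleotide and chromatin partners 7 were higher and none lower, with the thymidine kinase *Tk1* (5.35 and 38.4 CPM, log2 2.84) and the histone chaperone *Asf1b* (2.62 and 17.3 CPM, log2 2.73) first.

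Of the 12 E2F and pocket protein genes, which act on the promoters of many of the 37 genes, 5 were at least 1.5-fold higher and 1 lower in the W epithelium, counts near the 34.4% and 17.7% of all genes. The activators *E2f1* (1.82 and 7.33 CPM, log2 2.01), *E2f2* (0.459 and 1.21 CPM, log2 1.40) and *E2f3* (2.27 and 6.54 CPM, log2 1.53), the atypical repressor *E2f8* (1.84 and 10.7 CPM, log2 2.54) and the E2F partner *Tfdp1* (19.8 and 41.9 CPM, log2 1.08) were higher. *Rb1*, the retinoblastoma protein that holds E2F back, was lower (26.6 and 10.97 CPM, log2 -1.28), as it was in cluster 11 (36.8 and 15.2 CPM, log2 -1.28) and cluster 8 (52.4 and 15.9 CPM, log2 -1.72). *E2f4* (27.4 and 40.2 CPM, log2 0.55), *E2f6* (7.39 and 9.56 CPM, log2 0.37), *E2f7* (5.01 and 6.87 CPM, log2 0.46), *Rbl1* (13.8 and 14.7 CPM, log2 0.09), *Rbl2* (9.87 and 6.81 CPM, log2 -0.54) and *Tfdp2* (20.2 and 17.2 CPM, log2 -0.23) stayed within 1.5-fold. Within cluster 8, 1 of the 12 was higher (*E2f4*; 20.8% of all genes) and 5 lower (22.4%), and within cluster 11, 4 were higher (24.5%) and 3 lower (20.3%).

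Outside the epithelium, the genes were low in the stromal clusters and higher in some immune clusters. Stromal cluster 0 had 335 CPM (328 to 342) in UW and 381 CPM (374 to 388) in W (log2 0.18 (0.15 to 0.22)), and 15 of 37 genes were at least 1.5-fold higher (13.1% of all genes), with none 1.5-fold lower (22.3%). *Rrm2*, at 1.195 CPM (0.828 to 1.67) and 4.16 CPM (3.49 to 4.92), had the highest ratio there and *Slbp*, at 68 CPM (65 to 71.1) and 52.2 CPM (49.7 to 54.8), the lowest. At equal depth 1 of 2318 UW cells and 1 of 1708 W cells held at least 10 genes, a difference not detectable at this depth. Without thinning the shares were 0.295% and 5.88%, with median depths of 11853 and 17588 UMIs. The mitotic list was at 14.5 and 39.0 CPM in cluster 0, and the part of this in the result was not tested. Stromal cluster 10 had 377 CPM (361 to 393) and 436 CPM (421 to 449.9), with 13 of the 31 genes that had at least 20 UMIs 1.5-fold higher (10.6% of all genes) and none lower (17.3%). No thinned cell of it held 10 genes, and without thinning 0.708% and 3.48% of its cells did. Immune cells were nearly all from W, so that only W levels are given. The sums were 735 CPM (696 to 775) in the 710 cells of cluster 13, which carried neutrophil markers, 718 CPM (691 to 746) in cluster 14, led by *H2-M2* and *Cd209a*, 604 CPM (575 to 634) in cluster 15, led by *Lyz1* and *Pf4*, and 1339 CPM (1269 to 1411) in cluster 16, led by the mast cell proteases *Mcpt4* and *Cma1* and also carrying T cell markers. In cluster 16, 4 of 72 cells, 5.56% (1.53 to 13.6), held at least 10 genes, and in cluster 14 7 of 256 cells, 2.73% (1.11 to 5.55), did, with 143 and 98 shallower cells left out. *Slbp* (199 CPM (173 to 228)), *Dut* (176 CPM (152 to 204)) and *Pcna* (72.2 CPM (56.8 to 90.5)) were among the genes detected in cluster 16. The 6 epithelial markers were also found in these clusters, at 6538 CPM in cluster 16, 13693 CPM in cluster 14 and 11235 CPM in cluster 13, and the part of epithelial RNA in these levels was not tested.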

How the data were processed

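Libraries were aligned and UMIs counted by the authors with Cell Ranger 3.1.0, and whole-number counts per gene and cell were deposited with no normalization, beside a table of cells with cluster numbers from Seurat 3.2.2. The methods name the mm10 reference and the labels' processing notes mm9, and the 10x kit version differs between them. Before deposit the authors removed cells outside 500 to 8000 genes or above 10% mitochondrial UMIs, genes seen in fewer than 5 cells, and doublets called by DoubletFinder 2.0.3. An earlier doublet call is still recorded for 305 UW and 164 W cells of the table, which were kept here. Corneas had been digested in dispase at 4 °C for 18 h.

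The members and lists were chosen with earlier results of these data known. Counts were summed per cluster and library in Python 3.11.15 (numpy 2.4.6, scipy 1.17.1, pandas 2.3.3), giving CPM with exact Poisson intervals, ratios with exact conditional intervals and shares of cells with Clopper-Pearson intervals. A count of 0 allows up to 3 counts. Genes with fewer than 20 UMIs in both groups together were left out of counts past 1.5-fold, and all 37 genes passed in the epithelium. The split into shares and levels is the mean of both orders. Positions came from GENCODE M21 and promoters from RefSeq, both GRCm38.

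All 37 genes were named, and of the pathway and mitotic lists those with the 3 highest or 3 lowest ratios and every E2F gene. The computation was tested on simulated counts. The alternatives were TMM factors (edgeR 4.0.16), median-of-ratios size factors (DESeq2 1.42.0), a filter of 1000 genes and 5% mitochondrial UMIs, and other sums, limits and groupings of clusters. With 1 library per condition no p-value was computed.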

Additional observations from a re-analysis of the deposited data

Results flagged for a closer look

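Of the 37 genes, 9 had W over UW log2 ratios of opposite sign in clusters 8 and 11, each with a counting interval away from 0, where 1.85% of the 12088 genes with at least 20 UMIs in both clusters had them. The difference between the clusters was not tested, since each condition is 1 library. In each of the 9 the ratio was below 0 in the mitotic cluster 8 and above 0 in cluster 11. Among the licensing and helicase genes, *Cdc6* had -0.93 in cluster 8 and 1.23 in cluster 11, *Mcm10* -0.48 and 1.56, *Cdt1* -0.27 and 0.66, and *Mcm2* -0.11 and 0.22. For *Mcm2*, the ratio in cluster 8 is about as small as the shift that TMM scaling makes there, so its direction is not firm. The clamp *Pcna* had -0.22 and 0.58 and the loader subunit *Rfc4* -0.22 and 0.32. *Rrm1*, of ribonucleotide reductase, had -0.21 and 0.73, *Uhrf1* -0.36 and 0.69, and *Slbp* -0.28 and 0.25. The clusters come from the same expression values, and the part of the border between clusters 8 and 11 in these values was not tested beyond taking both clusters together.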

How the results depend on the processing

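No paired analysis was possible because each condition is 1 library. Of 75 alternative values of the main results, 39 stayed within the counting interval or within 1.5 times of the count, 33 moved beyond that and 3 changed sign. Of 444 alternative values of single genes 12 changed sign, 4 in cluster 8 and 8 in cluster 0, all for ratios whose counting interval held 0. For the epithelial sum (log2 1.63), TMM factors gave 1.41, size factors 1.39, the stricter filter on cells 1.69, the mean of per-cell CPM 1.27, leaving out the gene with the most UMIs 1.55, the geometric mean of the genes 1.74, leaving out cluster 7 1.58 and cluster 5 1.74, and leaving out clusters 8 and 11 1.37. For the cluster 11 sum (0.58) the stricter filter gave 0.61, the per-cell mean 0.55, leaving out the gene with the most UMIs 0.55, the geometric mean 0.63 and both clusters together 0.27. The cluster 8 sum (0.04) had no stable direction: it was -0.018 as per-cell mean, -0.0020 without the gene with the most UMIs and -0.046 as geometric mean, but 0.14 with TMM factors, 0.14 with size factors, 0.071 with the stricter filter and 0.27 with cluster 11 added. For cluster 0 (0.18), TMM factors gave 0.33, size factors 0.36 and the geometric mean 0.50. At 2-fold in place of 1.5-fold, 7 genes were higher in cluster 11 (12.7% of all genes), 0 in cluster 8 (10.9%) and 7 in cluster 0 (7.34%), and with clusters 8 and 11 together 6 were at least 1.5-fold higher. The difference in the share of epithelial cells rich in these genes (9.49 percentage points) was 16.6 at a limit of 6 genes, 3.15 at 15 genes, 1.12 when thinned to 2000 UMIs and 29.9 with no thinning, and in cluster 0 it was 0.475 at 6 genes and 5.58 with no thinning. Counted in UMIs per cell, cluster shares gave 46.8% of the epithelial difference. Leaving out the cells of earlier doublet calls gave 1.63 for the epithelial sum and 9.503 percentage points for the share. Causes of these shifts were not tested. Depth limits *Orc1*, *Cdc6* and *Ccne2* most, which had the fewest UMIs in the epithelium.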

Other observations

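A list of 14 other S phase genes, none of them among the 37, was summed to 173 CPM in UW and 318 CPM in W epithelium, with 11 genes at least 1.5-fold higher and 1 lower (34.4% and 17.7% of all genes). In cluster 11 the list was at 595 and 692 CPM, with 6 genes higher and 1 lower (24.5% and 20.3% of all genes), and in cluster 8 at 904 and 691 CPM, with none higher and 7 lower (20.8% and 22.4% of all genes).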
